A study of Mus musculus with 24 samples.

Results

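The 10 genes described here are cyclins, cyclin-dependent kinases, an inhibitor and a pocket protein of the G1 phase: Ccnd1, Ccnd2, Ccnd3, Ccne1, Ccne2, Cdk2, Cdk4, Cdk6, Cdkn1b and Rb1. They were picked by symbol, all 10 were present among 16617 genes in the deposited table, and they are described across its 8 group columns. The study measured poly(A) RNA by 3′ tag sequencing in mouse embryonic stem cells of 4 lines in 2 states, with 24 samples in the labels, 3 for each line and state. The wild-type line is R1, a mouse embryonic stem cell line. The catalytic-dead line, MLL3CD_MLL4CD, is also labelled R1. The floxed line is MLL3KO_MLL4fl and the knockout line is MLL3KO_MLL4KO, and the labels give neither a cell line name. Kmt2c and Kmt2d encode MLL3 and MLL4, enzymes that methylate histone H3 on lysine 4, mainly at enhancers. The floxed and knockout lines share the loss of MLL3 by their names, and each genotype is represented by its own line, so a genotype and other differences between lines cannot be told apart. Naive cells carry no treatment label, and formative cells were collected 63 h after withdrawal of LIF and the 2 inhibitors called 2i. The labels give neither how MLL4 was removed nor whether a line is 1 clone.

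In G1, D-type cyclins bind Cdk4 and Cdk6, E-type cyclins bind Cdk2, and both kinase complexes phosphorylate the retinoblastoma protein, which releases E2F transcription factors and lets cells enter S phase. Cdkn1b encodes p27, which inhibits cyclin E-Cdk2 complexes. D-type cyclins are classical targets of growth factor and ERK signalling, which 2i blocks.

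The deposited values are averages of a group on the log2 scale of CPM, in which each library is scaled to the same number of counts. Low and moderate averages fix the whole counts of their libraries, so library values were recovered for 36 of the 80 combinations of gene and group, and for all 8 groups for Ccnd3 and Rb1. Library values allowed a test for 37 of 120 combinations of gene and comparison, over 12 comparisons. Tests were made with limma on all recovered genes, and "rose" or "fell" here always means a Benjamini-Hochberg adjusted p under 0.05. Other values are the authors' averages, with no error and no test. For those a difference of at least 1 on the log2 scale, 2-fold, was counted.

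The 23 libraries found held 4808564 to 15425959 counts, and each correlated best with a library of its own group. The naive wild-type column averaged 2 libraries. The formative knockout column averaged 4, of which 1 also entered the formative catalytic-dead column. That library had a median correlation across genes of 0.659 with the other formative catalytic-dead libraries and 0.114 with those of the knockout, and it was taken out of the knockout average. For Ccnd1, Ccnd2, Ccne1, Cdk2, Cdk4 and Cdkn1b its own value was not recovered, the formative catalytic-dead average stood in for it, and the knockout value is an approximation. Summed naive markers stood at 2020 to 2292 CPM in naive groups and 408 to 577 CPM in formative groups, and formative markers at 83.0 to 162 CPM and 1418 to 2298 CPM. The shared pluripotency markers Pou5f1 and Sox2 summed to 169 to 280 CPM in naive groups. Their sum was 277 CPM in formative knockout cells and 101 to 141 CPM in the other formative groups. Summed levels of the markers present in the table were 1.71 to 13.4 CPM for fibroblasts, 0.824 to 3.20 CPM for primitive endoderm, 0.790 to 6.24 CPM for trophoblast and 6.01 to 49.7 CPM for neuroectoderm. The trophoblast sum (Cdx2 and Krt7) was highest in naive knockout cells, at 6.24 CPM against 0.790 CPM in naive floxed cells. Of its 2 genes, 2 rose in that comparison, where 18.2% of tested genes were called. The neuroectoderm sum (Sox1 and Pax6) was higher in the formative state of each line, at 6.01 and 10.6 CPM in wild-type, 11.1 and 18.1 CPM in floxed, 21.8 and 49.7 CPM in knockout and 11.05 and 30.7 CPM in catalytic-dead cells. The fibroblast sum (Col1a1, Col1a2 and Thy1) was also higher there, at 1.71 and 6.82, 1.89 and 7.72, 1.73 and 9.62, and 2.91 and 13.4 CPM in the same order. Of its 3 genes 2 rose in each line, where 32.9%, 34.9%, 27.8% and 30.5% of tested genes were called. All 3 were higher in formative wild-type and floxed cells, and 2 of the 3 in knockout and catalytic-dead cells. The part of these markers in the changes of the members was not tested. Kmt2d stood at 17.6 CPM in naive knockout and 28.8 CPM in naive floxed cells, a fall of 0.71 ± 0.18 (SE, adjusted p = 0.00439). In the formative state its libraries held 18.0 to 24.6 CPM in knockout and 21.9 to 27.7 CPM in floxed cells, tested and not called. Kmt2d also fell between formative wild-type libraries (30.0 to 41.9 CPM) and formative catalytic-dead ones (19.0 to 22.5 CPM). Kmt2c stood at 15.7 to 23.4 CPM in the 4 groups that lack MLL3 by name and at 35.4 to 67.4 CPM in the others. A 3′ tag outside a deleted part does not test a deletion.

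Coordinates are from GENCODE vM21 on GRCm38. The D-type cyclin genes lie at chr7:144929931-144939925 on the minus strand (Ccnd1, ENSMUSG00000070348), chr6:127125162-127152193 on the minus strand (Ccnd2, ENSMUSG00000000184) and chr17:47505051-47599691 on the plus strand (Ccnd3, ENSMUSG00000034165). The E-type cyclin genes lie at chr7:38097984-38107534 on the minus strand (Ccne1, ENSMUSG00000002068) and chr4:11191351-11204779 on the plus strand (Ccne2, ENSMUSG00000028212). The kinase genes lie at chr10:128697939-128705031 on the minus strand (Cdk2, ENSMUSG00000025358), chr10:127063534-127067920 on the plus strand (Cdk4, ENSMUSG00000006728) and chr5:3341485-3531008 on the plus strand (Cdk6, ENSMUSG00000040274). Cdkn1b (ENSMUSG00000003031) lies at chr6:134920401-134925513 on the plus strand and Rb1 (ENSMUSG00000022105) at chr14:73183673-73325822 on the minus strand. A gene on the opposite strand has an exon within the last 1000 bases of Ccnd1 (LTO1), Ccnd2 (Gm43126), Ccnd3 (Bysl), Ccne2 (Ints8), Cdk4 (Tspan31) and Rb1 (Rcbtb2), and exons of Pmel overlap those of Cdk2, as exons of Lpar6 overlap those of Rb1. Whether counting used strand was not stated in the labels or notes used here, and tags of such a pair may not be separated. A processed pseudogene, Ccnd3-ps, could share tags with Ccnd3.

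The 250 bases before the transcription start are shown for Ccnd3 and Cdk6, 2 members that changed past the threshold. They are also shown for Cdk2, the 1 member with an E2F-type motif among those searched. They are RefSeq sequences on GRCm38.p6, written on the gene's strand. The table holds 2 starts for Ccnd3, of which the first is shown and the second, whose 300-base window lies at chr17:47593217-47593516, is not. The promoter table matched 6 of the 10 members, namely Ccnd3, Ccne1, Cdk2, Cdk4, Cdk6 and Cdkn1b, and the other members are Ccnd1, Ccnd2, Ccne2 and Rb1. Capitals mark the motif match.
Ccnd3, chr17:47504801-47505050, plus strand: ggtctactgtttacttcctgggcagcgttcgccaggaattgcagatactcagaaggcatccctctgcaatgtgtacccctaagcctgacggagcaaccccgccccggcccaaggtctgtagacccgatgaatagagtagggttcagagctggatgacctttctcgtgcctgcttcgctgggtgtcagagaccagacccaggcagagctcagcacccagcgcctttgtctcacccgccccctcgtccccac
Cdk6, chr5:3343643-3343892, plus strand: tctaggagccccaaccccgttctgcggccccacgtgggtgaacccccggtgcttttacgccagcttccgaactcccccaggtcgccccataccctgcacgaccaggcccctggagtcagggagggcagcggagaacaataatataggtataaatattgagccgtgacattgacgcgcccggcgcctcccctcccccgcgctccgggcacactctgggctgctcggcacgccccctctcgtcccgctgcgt
Cdk2, chr10:128705052-128705301, minus strand: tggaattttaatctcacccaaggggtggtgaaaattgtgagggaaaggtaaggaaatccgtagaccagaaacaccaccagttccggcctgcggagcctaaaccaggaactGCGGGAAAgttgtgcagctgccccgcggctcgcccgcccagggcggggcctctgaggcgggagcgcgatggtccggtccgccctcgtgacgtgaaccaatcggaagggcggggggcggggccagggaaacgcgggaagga
The 4 E2F-type motifs searched on both strands were TTTCCCGC, TTTGGCGC, TTTCGCGC and TTTGCCGC, in windows of 300 bases from 250 before to 50 after the start. Of the 6 members with a promoter to search, Cdk2 was the 1 with a match, GCGGGAAA at bases -140 to -133 relative to the start. Since it was the only match found, none overlapped. Of 32851 promoters in the table, 744 (2.26%) held a match. The 250 bases hold 11 CpG dinucleotides for Ccnd3, 22 for Cdk6 and 21 for Cdk2. A match is a description of letters, not of a bound site.

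**Figure D1:**
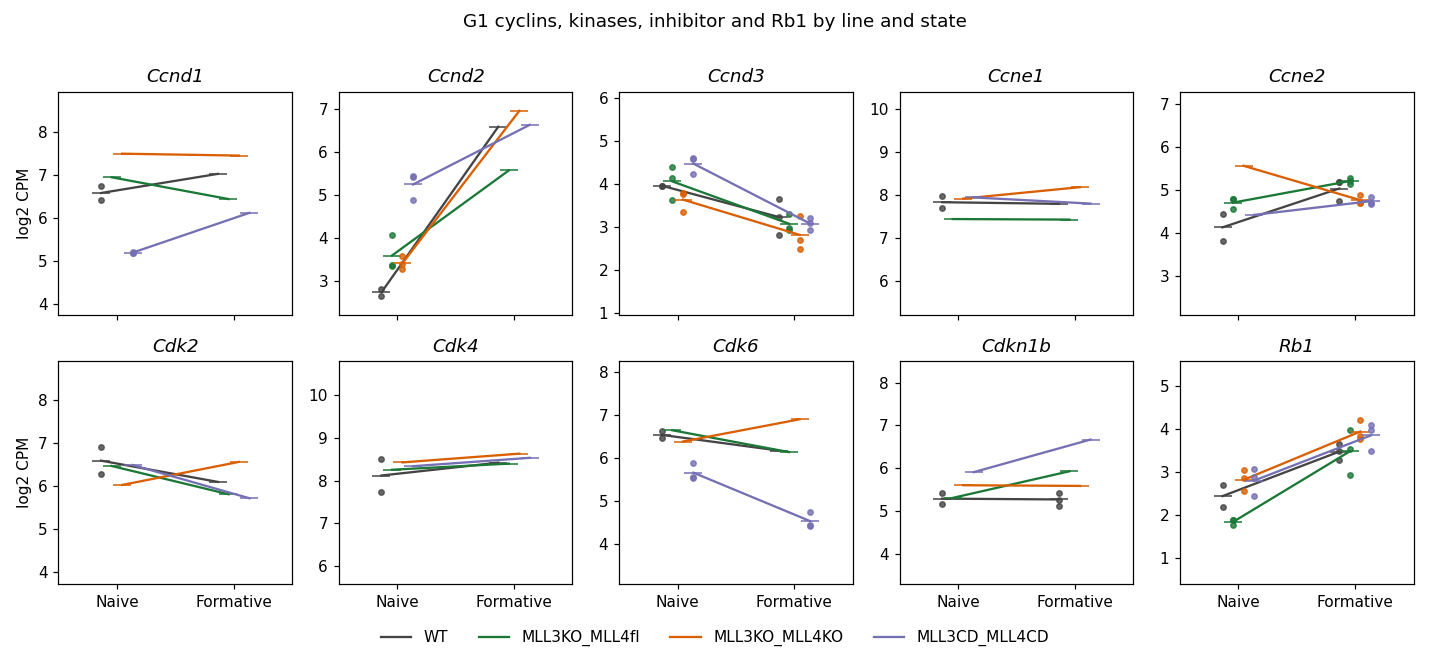
Level of each gene (log2 CPM, vertical axis, each panel spanning the same range of the log scale) in naive and formative cells (horizontal axis). Horizontal ticks joined by lines are group means by line and points are recovered libraries; the formative MLL3KO_MLL4KO mean leaves out the library shared with MLL3CD_MLL4CD. Ccnd2 runs from 6.69 CPM in naive wild-type to 125.0 CPM in formative knockout cells, and Cdk4 stays between 278 and 395 CPM.

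Levels over the 8 groups ranged most for Ccnd2, from 6.69 CPM in naive wild-type cells to 125.0 CPM in formative knockout cells, a span of 4.22 on the log2 scale. Cdk6 spanned 2.37, from 23.1 CPM in formative catalytic-dead to 119 CPM in formative knockout cells. Ccnd1 spanned 2.30, Rb1 2.10, Ccnd3 1.66, Ccne2 1.43 and Cdkn1b 1.39. The other genes moved less: Cdk2 spanned 0.88, Ccne1 0.76 and Cdk4 0.51. So 7 of the 10 genes spanned at least 1 on the log2 scale, against 67.0% of all genes, whose median span was 1.37.

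The first comparison is the passage from naive to formative cells in each line. In wild-type cells Rb1 and Ccne2 rose and Ccnd3 fell, while Cdkn1b was tested and not called. That is 3 of the 4 members tested, where 32.9% of all tested genes were called. In floxed cells the same 3 genes were called of 3 tested, with a background of 34.9%. In knockout cells Rb1 rose and Ccnd3 fell, 2 of 2 tested (background 27.8%). In catalytic-dead cells Rb1 rose and Ccnd3 and Cdk6 fell, 3 of 3 tested (background 30.5%). High averages gave no library values, so which members were tested depended on their level. Cdk6 had library values in the catalytic-dead groups, where its averages were lowest, and otherwise only in naive wild-type cells. In bulk samples, fewer cells of a type and less RNA per cell cannot be told apart.

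Ccnd3 encodes cyclin D3. Its naive library values were 15.5 and 15.6 CPM in wild-type cells, and its formative ones 12.6, 9.4 and 7.0 CPM. In floxed cells they were 12.4, 21.1 and 17.7 CPM, then 7.6, 7.9 and 9.9 CPM. In knockout cells they were 13.9, 13.7 and 10.1 CPM, then 5.6, 6.5 and 9.6 CPM. Every naive library of these lines lay above every formative library of its own line. In catalytic-dead cells Ccnd3 went from 24.4, 18.9 and 23.8 CPM to 8.5, 7.6 and 9.3 CPM, also without overlap. The share of all genes whose libraries did not overlap was not counted, here or for the members below. On the log2 scale Ccnd3 fell by 0.73 ± 0.25 (SE, adjusted p = 0.0233) in wild-type, 0.99 ± 0.23 (adjusted p = 0.000905) in floxed, 0.82 ± 0.27 (adjusted p = 0.0206) in knockout and 1.40 ± 0.24 (adjusted p = 2.05e-05) in catalytic-dead cells. The falls in floxed and catalytic-dead cells stayed past the threshold in each alternative analysis, with the adjusted p at most 0.0113 and 0.000324. The fall in wild-type cells missed it in a fit on its 2 groups alone (adjusted p = 0.0607) and without naive library a (0.106), naive library b (0.0661) or formative library c (0.138), libraries being lettered by falling depth. In knockout cells the fall missed it without naive library a (0.0783) or b (0.067), or formative library a (0.144) or b (0.0788). The test of the difference between catalytic-dead and wild-type changes gave -0.67 ± 0.34 (adjusted p = 0.307), and between knockout and floxed changes 0.16 ± 0.36 (adjusted p = 0.833). Bysl, the neighbour on the opposite strand, was 0.23, 0.41, 0.35 and 0.64 lower in wild-type, floxed, knockout and catalytic-dead formative cells, with no test, and stood at 69.1 to 136 CPM. Its part in the result was not tested.

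Rb1 encodes the retinoblastoma protein, the substrate of the G1 kinases. In wild-type cells it went from 4.6 and 6.4 CPM in naive libraries to 9.6, 11.3 and 12.6 CPM in formative ones. In floxed cells it went from 3.4, 3.7 and 3.7 CPM to 15.6, 7.7 and 11.6 CPM. Knockout cells held 7.2, 8.2 and 5.9 CPM, then 14.3, 13.6 and 18.5 CPM. Formative libraries lay above naive ones in each of these lines, and the formative floxed libraries were the most spread. Catalytic-dead cells went from 8.4, 7.4 and 5.5 CPM to 11.2, 17.0 and 15.7 CPM, again without overlap. Rb1 rose by 1.04 ± 0.30 (SE, adjusted p = 0.00838) in wild-type, 1.64 ± 0.31 (adjusted p = 6.45e-05) in floxed, 1.13 ± 0.26 (adjusted p = 0.000866) in knockout and 1.05 ± 0.27 (adjusted p = 0.00319) in catalytic-dead cells on the log2 scale. The wild-type rise missed the threshold without naive library a (0.79, adjusted p = 0.172). The rises in the other 3 lines stayed past it in each alternative. The changes did not differ past the threshold, at -0.52 ± 0.40 between knockout and floxed cells (adjusted p = 0.477) and 0.02 ± 0.41 between catalytic-dead and wild-type cells (adjusted p = 0.990). Rcbtb2, which ends against Rb1 on the opposite strand, rose by 1.61 ± 0.20 in wild-type (adjusted p = 2.68e-07), 1.66 ± 0.16 in knockout (adjusted p = 1.53e-09) and 2.05 ± 0.20 in catalytic-dead cells (adjusted p = 2.47e-09), and was 2.25 higher in floxed cells with no test. Lpar6, the other gene on that strand whose exons overlap those of Rb1, rose by 0.90 ± 0.31 in floxed (adjusted p = 0.0246), 2.36 ± 0.30 in knockout (adjusted p = 1.91e-07) and 1.32 ± 0.39 in catalytic-dead cells (adjusted p = 0.0101), and was 1.65 higher in wild-type cells with no test. Lpar6 stood at 6.18 to 51.3 CPM over the 8 groups. Both neighbours were higher in the formative state in each line, as Rb1 was, and their part in the Rb1 values was not tested.

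Of the E-type cyclins, Ccne2 could be tested in wild-type and floxed cells. Ccne2, cyclin E2, had 21.9 and 14.1 CPM in naive wild-type libraries and 36.4, 26.8 and 36.6 CPM in formative ones, which did not overlap. It rose by 0.90 ± 0.20 (SE, adjusted p = 0.000787), and stayed past the threshold in each alternative, with the adjusted p at most 0.0486. In floxed cells it went from 27.8, 27.6 and 23.5 CPM to 38.8, 37.2 and 35.5 CPM and rose by 0.50 ± 0.17 (adjusted p = 0.0211). That rise missed the threshold with size factors (0.41, adjusted p = 0.0638), without naive library c (adjusted p = 0.0883) and without formative library a (adjusted p = 0.0656). In catalytic-dead cells the average was 21.5 CPM before and 26.8 CPM after, a difference of 0.32 with no test. Knockout cells held the highest Ccne2 average of all groups in the naive state, 47.5 CPM, and 27.3 CPM in the formative state, -0.80 with no test. Ccne1, cyclin E1, stood at 229 and 223 CPM in wild-type, 175 and 173 CPM in floxed, 243 and 292 CPM in knockout and 247 and 224 CPM in catalytic-dead cells in the naive and formative averages. Its differences ran from -0.14 to 0.27 on the log2 scale, with no test.

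Ccnd2, cyclin D2, had the largest differences of the 10 genes in wild-type, floxed and knockout cells, while in catalytic-dead cells that of Ccnd3 (-1.40) was as large. Naive libraries held 7.1 and 6.3 CPM in wild-type, 10.3, 16.7 and 10.3 CPM in floxed and 11.9, 9.7 and 10.6 CPM in knockout cells, all below the naive catalytic-dead libraries at 29.7, 43.6 and 42.7 CPM. The formative averages were 96.7, 47.8, 125.0 and 99.8 CPM in wild-type, floxed, knockout and catalytic-dead cells, with no library values. Each formative average lay above every naive library of its line. The differences were 3.85 (14.5-fold) in wild-type, 1.98 (3.95-fold) in floxed, 3.55 (11.7-fold) in knockout and 1.39 (2.62-fold) in catalytic-dead cells on the log2 scale, with no test. Ccnd1, cyclin D1, showed no common direction: its averages were 95.6 and 130 CPM in wild-type, 123 and 86.7 CPM in floxed, 180 and 175 CPM in knockout and 36.5 and 69.4 CPM in catalytic-dead naive and formative cells. The differences were 0.45, -0.51, -0.04 and 0.93, with no test. With the formative knockout column as deposited, at 139 CPM, the difference in knockout cells was -0.38.

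**Figure D2:**
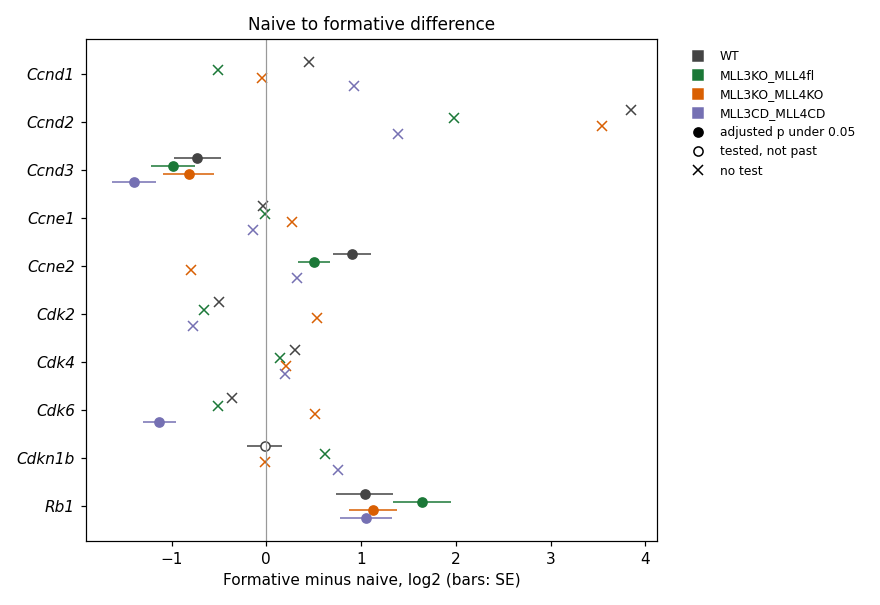
Formative minus naive difference of each gene (horizontal axis, log2 scale) in each of the 4 lines (colours), with SE bars where library values allowed a test. Filled circles passed an adjusted p of 0.05, open circles were tested and did not, and crosses have no test. Rb1 lies to the right of 0 and Ccnd3 to the left in all 4 lines, and Ccnd2 is farthest to the right, at 1.39 to 3.85.

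Among the kinases, Cdk6 fell in catalytic-dead cells, from 59.0, 46.5 and 47.0 CPM in naive to 21.3, 26.6 and 21.7 CPM in formative libraries. These values did not overlap, the fall was by 1.13 ± 0.17 (SE, adjusted p = 1.71e-05) and it stayed past the threshold in each alternative. In the other lines the Cdk6 averages were 92.8 and 72.1 CPM in wild-type, 100.03 and 70.3 CPM in floxed and 83.4 and 119 CPM in knockout cells, with differences of -0.36, -0.51 and 0.52 and no test. The last turns to -0.10 with the column as deposited (78.0 CPM), which holds the shared library. Cdk2 went from 96.2 to 68.3 CPM in wild-type, 88.3 to 56.0 CPM in floxed and 89.7 to 52.4 CPM in catalytic-dead averages. In knockout cells it went from 65.0 to 94.3 CPM. The differences were -0.49, -0.66, -0.77 and 0.54 in that order, with no test. The value in knockout cells rests on the approximated average, and was 0.33 with the column as deposited (81.5 CPM) and 0.32 with size factors. Pmel, whose exons overlap those of Cdk2 on the opposite strand, fell by 1.70 in wild-type (adjusted p = 0.00056) and by 2.80 in floxed cells (adjusted p = 2.49e-07), and gave -0.48 in catalytic-dead and 0.88 in knockout cells, not past the threshold. It stood at 1.68 to 13.5 CPM, and its part in the Cdk2 values was not tested. Cdk4, the most abundant of the 10 in tags, differed by 0.14 to 0.30 in the 4 lines, and by -0.02 in knockout cells with size factors.

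Cdkn1b was tested in wild-type cells, at 43.0 and 36.0 CPM in naive and 43.3, 38.6 and 35.0 CPM in formative libraries. The difference was -0.02 ± 0.19 (SE, adjusted p = 0.954), and the libraries of the 2 states overlap. The averages went from 39.8 to 61.1 CPM in floxed and from 60.3 to 102 CPM in catalytic-dead cells, 0.62 and 0.76 higher with no test. In knockout cells they were 48.8 and 48.3 CPM, and 58.2 CPM in the formative column as deposited.

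By the 2-fold rule, 2 of the 10 members differed between states in wild-type (Ccnd2 and Rb1; background 27.5% of all genes), 2 in floxed (Ccnd2 and Rb1; 26.2%), 2 in knockout (Ccnd2 and Rb1; 23.3%) and 4 in catalytic-dead cells (Ccnd2, Ccnd3, Cdk6 and Rb1; 24.2%). On this scaling the count in catalytic-dead cells was above its background share and the other 3 were not. Scaling by size factors moved the median gene by -0.10 in wild-type, -0.22 in knockout and -0.16 in the naive catalytic-dead comparison on the log2 scale, by -0.12 in the formative knockout comparison, and by at most 0.12 elsewhere. In wild-type cells this took Rb1 to 0.93, and the count to 1. In floxed cells Ccnd3 reached -1.08, and the count was 3. In knockout cells the count was 3 with other members: Rb1 stood at 0.91, and Ccnd3 (-1.04) and Ccne2 (-1.02) were counted. In catalytic-dead cells the count was 4 on both scalings.

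The mix of D-type cyclin tags was described by each gene's share, with no test. Tags of 3′ libraries come about once per transcript, so shares were taken without a length correction. Ccnd1 gave 81.1% of D-type cyclin tags in naive wild-type, 81.1% in naive floxed and 88.6% in naive knockout averages, and Ccnd2 5.68%, 7.97% and 5.26%. In formative averages of these lines Ccnd2 gave 40.9%, 33.4% and 40.7% and Ccnd3 3.98%, 5.89% and 2.29%. Naive catalytic-dead cells had 37.7% Ccnd1, 39.3% Ccnd2 and 23.0% Ccnd3. Their 3 libraries gave 32.6, 44.2 and 41.6% Ccnd2, against 6.41 and 4.76% in the naive wild-type libraries. Formative catalytic-dead averages had 39.1% Ccnd1, 56.2% Ccnd2 and 4.75% Ccnd3, the highest Ccnd2 share of the 8 groups. The sum of the 3 genes in wild-type averages was 118 CPM before and 236 CPM after the passage, 152 and 143 CPM in floxed, 203 and 307 CPM in knockout and 96.8 and 178 CPM in catalytic-dead averages.

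**Figure D3:**
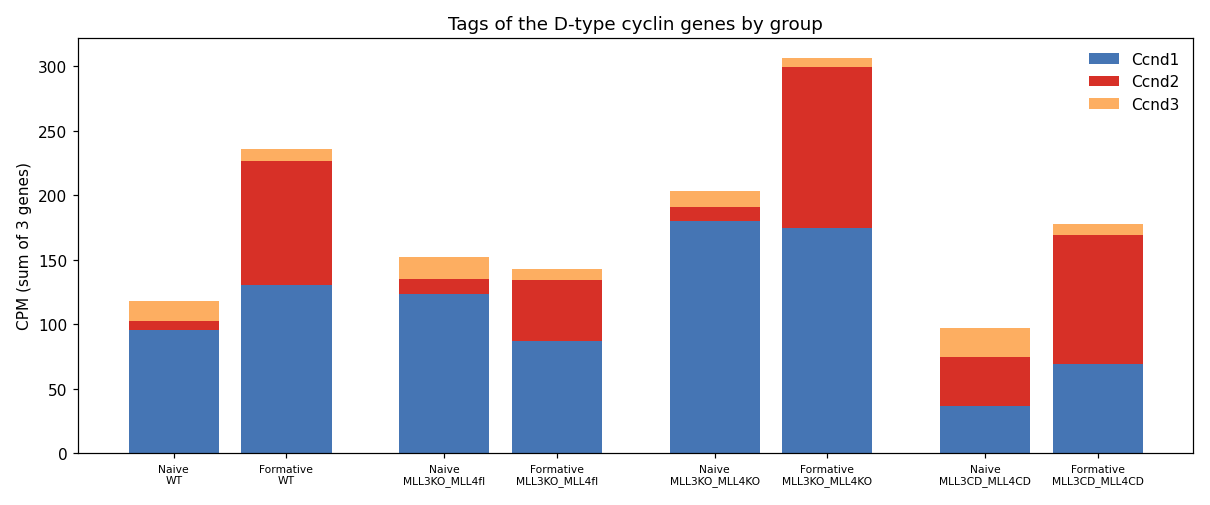
Summed CPM of the 3 D-type cyclin genes (vertical axis, from 0) in the 8 group averages (horizontal axis), split by gene; no error can be given for the averages. Ccnd2 is the smallest part in naive wild-type, floxed and knockout cells (5.26 to 7.97% of tags) and gives 39.3% in naive catalytic-dead cells.

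The second comparison sets catalytic-dead against wild-type cells in each state. It shares its groups with the comparison of states above, so the values are not independent. In naive cells Ccnd2 rose and Ccnd1 and Cdk6 fell, 3 of 5 members tested, where 12.3% of tested genes were called. At a higher catalytic-dead average Ccnd1 or Cdk6 could have gone without a test, so this count partly depends on the result. Outside naive wild-type cells, Ccnd1 had library values only in naive catalytic-dead cells, its lowest group. Ccnd2 rose by 2.51 ± 0.28 (SE, adjusted p = 2.07e-06), 5.69-fold, and the lowest catalytic-dead library, 29.7 CPM, lay above both wild-type libraries. Ccnd1 stood at 37.0, 36.3 and 36.3 CPM against 85.4 and 107 CPM in wild-type libraries and fell by 1.39 ± 0.18 (adjusted p = 5.49e-05). Cdk6 stood at 59.0, 46.5 and 47.0 CPM against 98.3 and 87.7 CPM, and fell by 0.88 ± 0.18 (adjusted p = 0.00254). All 3 differences stayed past the threshold in each alternative, with the adjusted p at most 0.00488, 0.00742 and 0.0344. Ccnd3 (0.51 ± 0.23, adjusted p = 0.154) and Rb1 (0.36 ± 0.34, adjusted p = 0.555) were tested and not called. The naive wild-type group rests on 2 libraries, which were themselves far apart for Cdk4 (214 and 361 CPM) and Cdk2 (77.3 and 120 CPM).

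Between formative wild-type and catalytic-dead cells, 0 of 3 members tested with limma were called (Ccnd3, Ccne2 and Rb1), where 9.48% of tested genes were, and 0 of the 3 had an unadjusted p under 0.05. Ccnd3 differed by -0.15 ± 0.25 (SE, adjusted p = 0.769), Ccne2 by -0.29 ± 0.17 (adjusted p = 0.302) and Rb1 by 0.38 ± 0.23 (adjusted p = 0.334). Of the untested averages, Cdk6 was 1.64 lower (23.1 against 72.1 CPM) and Cdkn1b 1.39 higher (102 against 38.8 CPM). The formative catalytic-dead Cdk6 libraries, 21.3 to 26.6 CPM, all lay below the formative wild-type average. Ccnd1 was 0.91 lower and Ccnd2 0.05 higher. By the 2-fold rule 2 of 10 members differed in naive cells (Ccnd1 and Ccnd2; background 14.8%), or 3 with size factors, which took Cdk6 to -1.04, and 2 in formative cells (Cdk6 and Cdkn1b; background 10.0%). Of 2 members whose change could be tested between these lines, 0 were called with limma (Ccnd3 and Rb1, unadjusted p = 0.0595 and 0.967), where 3.57% of tested genes were. Among untested members the change differed by -2.46 for Ccnd2, or -2.38 with size factors. The others lay between -0.76 and 0.78, and the share of all genes was not counted.

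**Figure D4:**
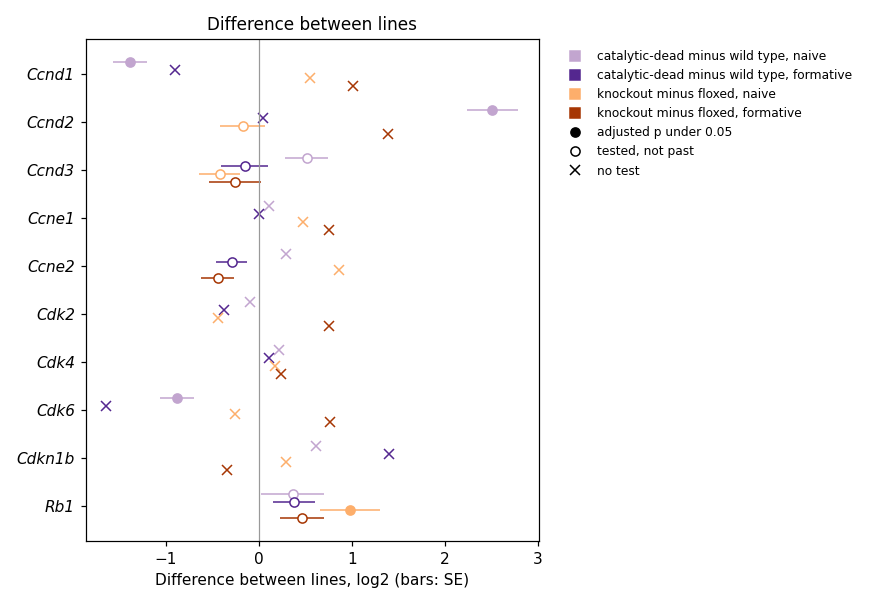
Difference between lines for each gene (horizontal axis, log2 scale) in naive and formative cells, for catalytic-dead minus wild type (purple) and knockout minus floxed (orange), with SE bars where tested. Filled circles passed an adjusted p of 0.05, open circles did not, and crosses have no test. Naive catalytic-dead cells have Ccnd2 at 2.51, Ccnd1 at -1.39 and Cdk6 at -0.88.

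The third comparison sets knockout against floxed cells. In naive cells Rb1 rose by 0.98 ± 0.32 (SE, adjusted p = 0.0309), from 3.4, 3.7 and 3.7 CPM to 7.2, 8.2 and 5.9 CPM, without overlap. It was the 1 member called of 3 tested, where 18.2% of tested genes were called. The call was lost when any of the 3 naive floxed libraries, or naive knockout library a or b, was left out, with the adjusted p at 0.0597 to 0.1098. Rcbtb2 differed by 0.37 ± 0.19 in this comparison (adjusted p = 0.184) and Lpar6 by -0.12 ± 0.35 (adjusted p = 0.869). Ccnd2 (-0.18 ± 0.24, adjusted p = 0.703) and Ccnd3 (-0.42 ± 0.22, adjusted p = 0.195) were not called. Of the untested averages Ccne2 was 0.86 higher, Ccnd1 0.55 higher, Ccne1 0.48 higher and Cdk2 0.44 lower, and 0 of 10 members differed 2-fold (background 16.4%).

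In formative cells 0 of 3 members tested with limma were called, where 18.7% of tested genes were, and 1 had an unadjusted p under 0.05. That gene, Ccne2, stood at 26.2, 29.6 and 26.2 CPM in knockout and 38.8, 37.2 and 35.5 CPM in floxed libraries, without overlap. It differed by -0.44 ± 0.17 (SE, adjusted p = 0.0738), and by -0.56 with size factors (adjusted p = 0.0256). Ccnd3 (-0.26 ± 0.28, adjusted p = 0.586) and Rb1 (0.46 ± 0.23, adjusted p = 0.183) were not called either. The untested averages were higher in knockout cells for Ccnd2 (1.39), Ccnd1 (1.01), Cdk6 (0.76), Ccne1 (0.76) and Cdk2 (0.75), and lower for Cdkn1b (-0.34). These rest on an average from which the shared library was taken out. With the column as deposited Ccnd1 was 0.68, Cdk2 0.54, Cdk6 0.15 and Cdkn1b -0.07 apart. By the 2-fold rule 2 of 10 members differed (Ccnd1 and Ccnd2; background 15.1%), or 1 with size factors or with the column as deposited. Of 2 members whose change could be tested between knockout and floxed cells, 0 were called with limma, where 9.2% of tested genes were. The 2 were Ccnd3 and Rb1 (unadjusted p = 0.646 and 0.204). Among untested members the change differed by 1.56 for Ccnd2, 1.19 for Cdk2, 1.026 for Cdk6 and -1.30 for Ccne2. With size factors these were 1.44, 1.07, 0.902 and -1.43. The values of Ccnd2 and Cdk2 rest on the approximated average. The other untested members lay between -0.64 and 0.46, and the share of all genes was not counted.

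The fourth comparison sets floxed against wild-type cells, which joins the loss of MLL3 with other differences between lines. In naive cells 0 of 4 members tested with limma were called, where 5.6% of tested genes were, and 2 had an unadjusted p under 0.05. These were Ccnd2 (0.86 ± 0.30 SE, adjusted p = 0.0979), whose 3 floxed libraries all lay above the wild-type ones, and Ccne2 (0.58 ± 0.21, adjusted p = 0.115). Ccnd3 differed by 0.10 ± 0.23 and Rb1 by -0.60 ± 0.36, with adjusted p = 0.886 and 0.430. In formative cells 0 of 3 members were called with limma (background 10.9%), and 0 had an unadjusted p under 0.05. Ccne2 differed by 0.17 ± 0.16, Ccnd3 by -0.16 ± 0.25 and Rb1 by 0.01 ± 0.23. By the 2-fold rule 0 of 10 members differed in naive cells (background 10.8%) and 1 in formative cells (background 10.7%), namely Ccnd2, at -1.02 with no test. Cdkn1b was 0.66 higher and Ccnd1 0.59 lower in formative floxed cells, with no test.

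The 6 related lists were counted beside the 10 members. Of the other CDK inhibitors, 5 of 6 could be tested in the wild-type passage to formative cells, and 1 rose and 2 fell, where 32.9% of tested genes were called. Cdkn1c, which encodes p57, rose by 3.26 ± 0.38 (SE, adjusted p = 3.85e-08), from 2.92 to 5.05 CPM in naive libraries to 29.2 to 42.8 CPM in formative ones. Cdkn2d, which encodes p19 of the INK4 family, fell by 1.12 ± 0.21 (adjusted p = 0.000144). The median of the 6 was -0.69, against 0.14 over all genes. Cdkn1c also rose in floxed (3.41), knockout (2.43) and catalytic-dead cells (3.46), and it fell by 1.81 between formative floxed and knockout cells (adjusted p = 1.07e-05) and by 1.90 between formative wild-type and catalytic-dead cells (adjusted p = 3.94e-06).

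Between naive knockout and floxed cells 2 of 3 tested inhibitors rose, where 18.2% of tested genes were called, and 2 of 3 untested ones were at least 2-fold higher, where 16.4% of all genes differed 2-fold, with a median of 1.54 for the 6 against 0.01 over all genes. The largest rise past the threshold was that of Cdkn2c, an INK4 inhibitor of Cdk4 and Cdk6, by 2.35 ± 0.50 (SE, adjusted p = 0.000661). Its libraries were at 0.301 to 1.56 CPM in floxed and 3.32 to 4.29 CPM in knockout cells. Between formative knockout and floxed cells Cdkn2b, another INK4 inhibitor, rose by 3.71 ± 0.43 (adjusted p = 4.96e-08), from 0.671 to 1.05 CPM to 8.52 to 14.2 CPM, and the median of the 6 was 1.604 against 0.07. In the same comparisons Cdkn1b differed by 0.30 in naive and -0.34 in formative averages.

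Of the 12 pocket protein, E2F and DP genes, 8 were tested in the wild-type passage, where 32.9% of tested genes were called. Of these, 1 rose (Tfdp1, 0.90 ± 0.31) and 1 fell (Rbl1, which encodes p107, -0.51 ± 0.18). In catalytic-dead cells 2 of 9 rose, led by the repressor E2f7 (0.80 ± 0.20), and 2 fell, led by the activator E2f2 (-1.18 ± 0.22; background 30.5%). The same 2 genes were called in floxed cells, where of 6 tested E2f7 rose and E2f2 fell (background 34.9%). In knockout cells 2 of 5 tested rose, led by E2f7, and 0 fell (background 27.8%). Of 12 regulators of G1 kinases, 2 were tested in wild-type cells and 0 were called (background 32.9%). In floxed cells 1 of 2 tested rose, namely Fbxo4 (1.31 ± 0.37; background 34.9%). The 17 S-phase genes were too abundant for library values, so 0 were tested, and their median differences were -0.20 in wild-type, -0.16 in floxed, -0.35 in knockout and -0.39 in catalytic-dead cells, against 0.14, 0.13, 0.19 and 0.06 over all genes. Of the 10 mitotic genes 2 were tested in wild-type cells and 0 were called (background 32.9%), with a median of 0.16 against 0.14 over all genes. Of 5 growth factor response genes, 3 of 3 tested rose in wild-type cells (background 32.9%), led by Egr1 (4.48 ± 0.55), and 3 of 3 in knockout cells (background 27.8%), led by Spry4 (5.62 ± 0.54). In floxed cells 2 of 3 tested rose (background 34.9%), 3 of the 5 were higher in the formative state, and the median was 1.63. In catalytic-dead cells 3 of 3 tested rose (background 30.5%).

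For the 7 members that span at least 1 on the log2 scale, the genes most alike in pattern were sought among 3768 genes by Pearson's r over the 8 deposited averages, which share 1 library between 2 columns. These were H1fx (0.986) and Pdcd4 (0.980) for Ccnd2, Lpar1 (0.987) and Gabarapl2 (0.984) for Ccnd3, and Stx6 (0.984) and Gstm5 (0.983) for Rb1. For Ccnd1 they were Unc13b (0.966) and Ctsd (0.959), for Ccne2 Gm43581 (0.962) and Psma3 (0.948), for Cdkn1b Lrrcc1 (0.967) and Mxi1 (0.940), and for Cdk6 Bcorl1 (0.925) and Hspg2 (0.897). With 8 points these are descriptions. By Spearman's rho, 118 genes ranked above Gabarapl2 for Ccnd3, and 0 ranked above H1fx for Ccnd2.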

How the data were processed

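The authors deposited 1 table of group means on a log2 scale. Its values were found to be log2 CPM after adding a prior count (2, in proportion to library size) and averaging within a group, and CPM printed here includes that prior count. Per the labels' protocols, 200 ng of RNA went into QuantSeq 3' FWD libraries read for 50 bases. Per the submitters' processing notes, cutadapt 2.5, STAR, featureCounts of Subread 1.6.4 and DESeq2 1.34.0 were used, with mm10. Columns headed NCKO and FCKO were read as the floxed line, an inference that the headers do not spell out.

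Whole counts were recovered by searching within 4, 2 or 1 log2 of each mean, which can make libraries of a group look more alike, and which left abundant genes without library values. Library sizes lay within 0.042 of whole numbers, and the total left 6812462 counts for 1 library outside all columns. At least 99.7% of genes under 100 counts were recovered per group. On simulated data for the naive knockout comparison, 12 of 307063 recovered values were wrong, the test called 28.8% of genes changed 1.5-fold, 73.0% of those changed 2-fold and 55 of 55 changed 4-fold, and 5 of 123 calls were unchanged genes. Changes were simulated only in genes of low to moderate level, with an assumed spread between libraries. The rates do not describe genes outside those settings.

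Tests used limma 3.58.1 in R 4.3.3, in 1 model of the 8 groups with weights from a lowess trend (span 0.3), two-sided, with Benjamini-Hochberg adjustment over all tested genes of a comparison. The filter asked for at least 3 libraries at or above the CPM that 10 counts give in a library of median size (16539 of 16617). Where 1 naive wild-type library was left, it was assumed to vary like the other groups. Per the series' design text, replicates were separate cultures. All members are named. Of other lists, only the gene with the largest change past the threshold in each direction is given values, besides neighbours on the opposite strand and the targeted genes. The 2 genes most alike to a member are also named. The members and lists were chosen with earlier results of these data known. The markers Col3a1, Pdgfra, Sox17 and Elf5 were not found by symbol in the deposited table, so they were not analysed here. Alternatives tried were size factors, no filter and a stricter one of 50 counts, a prior count of 0.5, no weights, a fit on the compared groups alone, the formative knockout column as deposited, and each library left out.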

Additional observations from a re-analysis of the deposited data

How the results depend on the processing

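No called difference of a member turned its direction under the alternatives run. Leaving out 1 library at a time, the number of members called ranged from 1 to 3 in the wild-type change (1 without naive wild-type library a), from 1 to 2 in the knockout change and from 0 to 1 in naive knockout against floxed cells. With size factors 1 member, Ccne2, was called in formative knockout against floxed cells, where 0 were called before. By the 2-fold rule, an alternative chosen after seeing the data, size factors gave 1 member in the wild-type change, 3 each in the floxed and knockout changes and between naive wild-type and catalytic-dead cells, where 2 were counted before, and 1 in formative knockout against floxed cells, and the formative knockout column as deposited gave 1 in the latter. The cause was not tested. No paired analysis was possible because the recovered libraries carry no replicate number. Depth and abundance limit the tests: 44 of 80 averages of a member had no library values. No difference of Ccne1, Cdk2 or Cdk4 carries an error, and most differences of Ccnd1, Ccnd2, Cdk6 and Cdkn1b carry none either. The naive wild-type group had 2 libraries, and formative knockout averages of 6 members are approximate, shifting by 0.06 on the log2 scale for each SD by which the shared library departs from its group.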
